A study of Homo sapiens with 34 samples.

Results

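The regions described here are 974 segments of the genome, each 5 kb long, that carried a peak of methylated H3K9 in nearly every COLO320 DM library and in almost no PC3 DM library. Autosomes of hg38 were divided into 5 kb bins starting at 0, and 18 Mb of chromosome 8 from 120 Mb on, which hold MYC, were left out. The bins were chosen by the presence of peaks: a bin was kept when a peak overlapped it in at least 14 of the 18 COLO320 DM lists and in at most 2 of the 16 PC3 DM lists. The 974 bins cover 4.87 Mb and are 0.288% of the 338364 autosomal bins with a peak in any list. They are 24.4% of the 3991 bins that were recurrent in COLO320 DM, and the other 3017, with a peak in 3 or more PC3 DM lists, are called shared bins below. For that reason how often they were marked in either line is a description and was not tested.

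Both lines are human cancer lines that carry the oncogene MYC on extrachromosomal DNA, circles outside the chromosomes. COLO320 DM comes from a colorectal adenocarcinoma and PC3 DM from a prostatic adenocarcinoma. H3K9 methylation was mapped with CUT&Tag, in which an antibody guides a transposase to marked chromatin so that DNA is cut and tagged there. Each library came from 50000 nuclei collected 3 days after lipofection of 700 ng of sgRNA plasmid. COLO320 DM had 3 libraries for each of the perturbations ecSE1, ecSE2, ecSE3, ecSE4 and ecSEcombo and 3 for the vector. PC3 DM had 3 libraries each for ecSE1, ecSE2, ecSE6 and ecSEcombo, 2 for ecSE7 and 2 for the vector. The labels call the antibody anti-H3K9me without the degree of methylation, and they name neither the effector protein nor the DNA that each ecSE element covers. The medium and the lipofection reagent differed between the lines, so line, medium and reagent cannot be told apart. A repressive mark does not measure expression, so marker genes could not check the cell type: 0 of 12 intestinal, 0 of 7 autosomal neuroendocrine and 0 of 9 prostate genes held one of the bins.

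Methylation of lysine 9 of histone H3 is the mark of heterochromatin. Enzymes such as SUV39H1, SETDB1 and EHMT1 write it, and HP1 proteins bind its higher forms and help to keep the underlying DNA compact and silent. It covers repeats and gene-poor DNA in most cells, and in engineered cells a KRAB repressor domain brought to DNA by a guide RNA can deposit it at a chosen element.

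Most of the 974 bins lay away from promoters, so the few at a transcription start are shown first. RefSeq promoter windows on GRCh38.p14, from 250 bases before to 50 after a start, fell inside the bins for 10 protein-coding genes with 13 windows. A peak touched the window itself in 16 of 18 COLO320 DM lists for EEF1A1, in 14 for C1GALT1C1L and in 11 for RDH16. In PC3 DM a peak touched each of these windows in 0 of 16 lists. The URAD window is printed as the contrast: it lies in a bin with a peak in 18 of 18 COLO320 DM lists, yet 0 peaks touched it. Capitals mark the dinucleotide CG, read on the printed strand, whose complement holds the same sites.
EEF1A1: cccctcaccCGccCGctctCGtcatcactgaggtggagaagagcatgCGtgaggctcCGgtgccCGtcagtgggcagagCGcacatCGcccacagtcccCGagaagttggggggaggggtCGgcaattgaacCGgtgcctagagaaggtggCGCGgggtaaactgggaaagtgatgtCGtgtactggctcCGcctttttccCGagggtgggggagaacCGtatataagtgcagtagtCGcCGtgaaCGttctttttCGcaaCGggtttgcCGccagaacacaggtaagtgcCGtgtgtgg
C1GALT1C1L: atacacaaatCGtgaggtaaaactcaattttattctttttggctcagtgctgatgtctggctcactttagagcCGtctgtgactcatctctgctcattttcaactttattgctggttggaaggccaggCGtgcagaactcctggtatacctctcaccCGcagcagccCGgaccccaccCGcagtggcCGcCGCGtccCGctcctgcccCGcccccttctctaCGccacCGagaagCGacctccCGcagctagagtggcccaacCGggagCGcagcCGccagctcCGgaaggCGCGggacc
RDH16: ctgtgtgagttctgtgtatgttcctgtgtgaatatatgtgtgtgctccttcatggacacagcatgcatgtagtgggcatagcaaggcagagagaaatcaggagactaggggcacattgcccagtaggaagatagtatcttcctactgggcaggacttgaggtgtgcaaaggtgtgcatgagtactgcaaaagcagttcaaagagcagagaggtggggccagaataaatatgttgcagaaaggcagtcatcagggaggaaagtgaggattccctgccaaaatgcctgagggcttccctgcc
URAD: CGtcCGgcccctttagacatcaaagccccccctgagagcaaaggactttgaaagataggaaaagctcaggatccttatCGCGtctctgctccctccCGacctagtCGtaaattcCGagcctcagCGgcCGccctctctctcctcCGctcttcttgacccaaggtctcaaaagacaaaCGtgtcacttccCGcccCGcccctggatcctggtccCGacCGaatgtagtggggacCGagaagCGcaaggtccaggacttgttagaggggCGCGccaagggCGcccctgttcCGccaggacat
The windows run chr6:73520983-73521282 for EEF1A1, chr2:43676380-43676679 for C1GALT1C1L, chr12:56957559-56957858 for RDH16 and chr13:27978615-27978914 for URAD, all on the minus strand. EEF1A1 has 24 CG, C1GALT1C1L 21, RDH16 0 and URAD 21, against a median of 21 over all 21156 autosomal protein-coding windows of the same length. The 13 windows in the bins had a median of 18 CG. So the marked windows included RDH16 with none, and the URAD window, which had no peak, was as rich in CG as C1GALT1C1L.

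EEF1A1 encodes the elongation factor that brings aminoacyl-tRNA to the ribosome, and its promoter is widely used to drive genes in expression vectors. Its bin, chr6:73520001-73525000, had a peak in 18 of 18 COLO320 DM lists and in 1 of 16 PC3 DM lists. The authors' fold, which divides the summit by the background MACS2 expected at that place, was 6.66 at the lowest, 11.2 at the median and 19.8 at the highest in the 15 perturbed COLO320 DM lists. It was 8.66, 8.47 and 12.2 in the 3 vector lists, inside that range. The median peak ran chr6:73520643-73521127 and so covered the transcription start at the upper end of the gene, chr6:73515750-73521032. The 1 PC3 DM peak, in ecSEcombo replicate 3, had a fold of 6.65 and 8 fragments at its summit. Among 15 genes whose parts are common in expression constructs, EEF1A1 was the only one with a bin of this kind. Reads from plasmid and from chromosome cannot be told apart here, and the labels do not list the parts of the plasmids.

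C1GALT1C1L, a relative of the chaperone gene C1GALT1C1, had a peak over its bin chr2:43675001-43680000 in 15 of 18 COLO320 DM lists. Their fold was 5.38 to 16, with a median of 6.59. A single PC3 DM library, ecSE2 replicate 2, had a peak there with a fold of 10.7, above that median. RDH16, a retinol dehydrogenase gene, had a peak in its bin in 18 COLO320 DM lists with a fold of 4.49 to 10.6 and a median of 5.81. In PC3 DM, ecSEcombo replicate 1 had a peak in the RDH16 bin with a fold of 5.68, close to that median, and 7 fragments at its summit. The other genes with a promoter window in the bins were TBX4, B4GALNT2, CDH2, IL1R1, LHX8 and LOC124901637. A peak touched the TBX4 window in 1 COLO320 DM list and the remaining ones in 0, so their bins were marked beside the window.

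Recurrence among the 974 bins was spread over the whole allowed range. In COLO320 DM, 258 bins had a peak in exactly 14 lists, 199 in 15, 178 in 16, 166 in 17 and 173 in all 18. In PC3 DM, 274 had a peak in 0 lists, 340 in 1 and 360 in 2. There were 45 bins at both extremes, 18 of 18 and 0 of 16. The limits fall on a slope with no gap: 278 bins with 13 COLO320 DM lists were just outside, with a median fold of 5.99, against 258 just inside with 6.01. Likewise 360 bins with 2 PC3 DM lists, of median fold 6.12, stood beside 314 with 3 lists and 6.08.

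**Figure D1:**
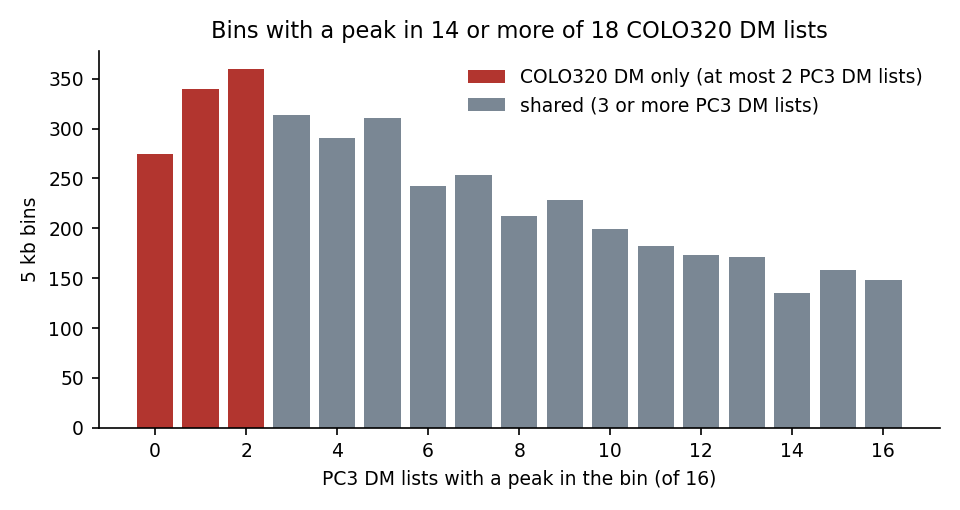
Number of 5 kb bins recurrent in COLO320 DM (y axis) by the number of the 16 PC3 DM lists with a peak in the same bin (x axis). Red bars are the COLO320 DM only bins, 274, 340 and 360 at 0, 1 and 2 lists, and grey bars are shared bins, which fall gradually to 148 at 16 lists.

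COLO320 DM lists had a peak in 68.8 to 95.8% of the 974 bins, with a median of 92.6%, and PC3 DM lists in 0.616 to 21%, with a median of 5.49%. In 15 of the 16 PC3 DM lists this was below the share of all autosomal bins with a peak in that list. The rule allows each bin a peak in at most 2 PC3 DM lists, so low shares there follow from the choice of bins. The highest PC3 DM value belonged to ecSEcombo replicate 1, whose list held 102290 peaks against a PC3 DM median of 26527. Of the shared bins, COLO320 DM lists had a peak in 74.8 to 97.7% and PC3 DM lists in 36 to 80.6%. In 4 COLO320 DM libraries the share was lowest: ecSE1 replicate 1 with 70.9%, ecSEcombo replicate 1 with 68.8%, and vector replicates 1 and 2 with 71.5 and 69.5%. The same 4 libraries had the lowest shares of shared bins, from 74.8 to 79.5%, so both kinds of bin were marked less often in the same libraries. Their lists held 9385 to 22239 peaks, against 14119 to 125214 in the other COLO320 DM libraries, and the part of list length in these shares was not tested. Lists held 9385 to 125214 peaks in COLO320 DM and 10288 to 102290 in PC3 DM.

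By chromosome, the bins were concentrated on chromosome 13. It held 175 of the 974, or 18% (95% Wilson interval 15.7 to 20.5%, counting error only), against 6.26% of shared bins. This is 1.78 bins per Mb, with chromosome 4 next at 0.611 (116 bins) and chromosome 3 at 0.55 (109 bins). At the low end were chromosome 19 with 0.0344 per Mb (2 bins), chromosome 15 with 0.0707 (6 bins) and chromosome 22 with 0.0748 (3 bins). Chromosome 19 had few such bins although its density of shared bins, 2.04 per Mb, was the highest of any autosome. Of all bins recurrent in COLO320 DM, 48.1% on chromosome 13 and 43.1% on chromosome 16 were COLO320 DM only, against 1.65% on chromosome 19.

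Chromosome 13 also took more of all peaks in this line. Its share of the peaks of a list was 5.7 to 7.96% in the 18 COLO320 DM lists and 2.88 to 3.59% in the 16 PC3 DM lists. The lines did not overlap, but this was not particular to chromosome 13. On chromosome 2 the shares were 9.85 to 10.8% in COLO320 DM and 8.53 to 9.21% in PC3 DM. On chromosome 10 they were 2.7 to 3.98% and 4.74 to 5.19%. Without overlap, the COLO320 DM shares were also higher on chromosomes 3, 4, 12 and 16 and lower on 7, 8, 14, 20 and 21. The autosomes on which the lines overlapped were fewer than those on which they did not. Copy number was not measured in these files, and its part in the excess on chromosome 13 was not tested. In windows of 5 Mb, 245 of 566 held none of the bins. The 14 windows with 10 or more held 209 of them, and 9 of these 14 lay on chromosome 13. The fullest were chr13:25000001-30000000 with 26 bins, chr16:30000001-35000000 with 22, chr3:165000001-170000000 with 18 and chr3:160000001-165000000 with 17.

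**Figure D2:**
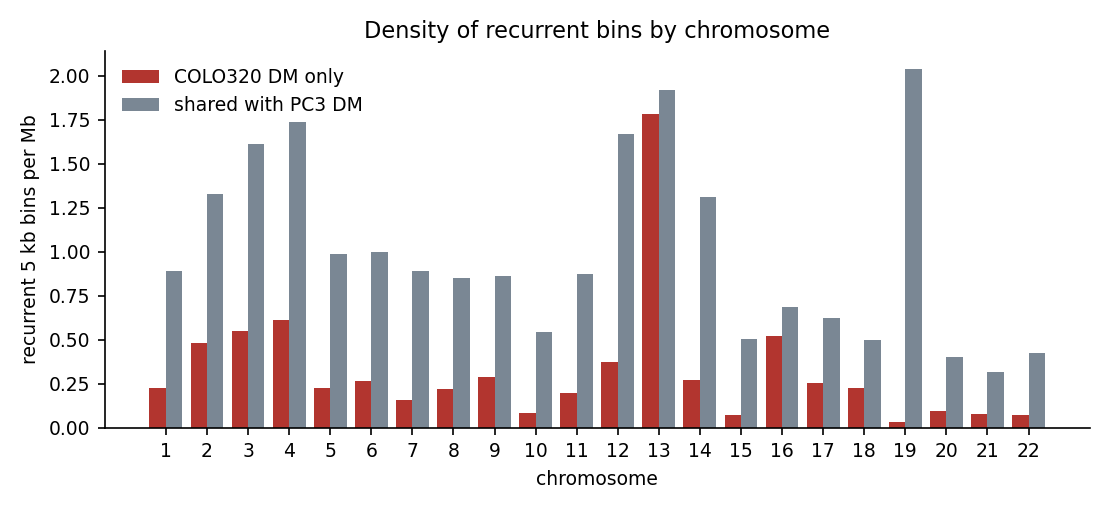
Recurrent 5 kb bins per Mb (y axis) on each autosome (x axis), with COLO320 DM only bins in red and shared bins in grey. Chromosome 13 reaches 1.78 COLO320 DM only bins per Mb, and the next highest, chromosome 4, reaches 0.611.

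Adjoining bins were rare. The 974 bins formed 909 domains: 858 single bins, 45 pairs and 6 runs of 3 or more. Only 11.9% of them touched another one, against 19.2% of the shared bins. The shared bins are more numerous, 3017, and the part of their density in this was not tested. Of the 65 places where 2 of the 974 bins met, 42 had 1 peak reaching across the border in 9 or more COLO320 DM lists. Many of the pairs are therefore a single peak cut by the grid. The 6 longest domains all fell in 2 places, one on the short arm of chromosome 16 and one at PDX1 on chromosome 13. The next 4 domains by rank were pairs: chr3:130800001-130810000, chr9:23325001-23335000, chr9:17975001-17985000 in ADAMTSL1, and chr3:137415001-137425000. All 45 pairs are equal in length, and these 4 were named in order of fold. Their median folds of 8.07 to 9.12 therefore follow from the ranking and do not describe pairs in general. Their local backgrounds were low, 3.04 to 4.59 times the lowest of the library.

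The 13q12 stretch, chr13:27800001-28000000, was delimited after its values were seen. It holds the homeobox genes PDX1, which directs formation of the pancreas and duodenum, and CDX2, which directs intestinal identity, with the long noncoding RNA PLUT beside PDX1. Of its 40 bins, 19 met the rule, forming among others the domains chr13:27835001-27855000 (4 bins, in PLUT), chr13:27895001-27910000 (3 bins, in PLUT) and chr13:27915001-27930000 (3 bins). The last one spans the whole of PDX1, chr13:27920000-27926313. CDX2 itself, chr13:27960918-27969315, had a peak in 2 of 18 COLO320 DM lists in each of the bins starting at 27960001 and 27965001, and in 0 PC3 DM lists. Of 11 genes listed for this neighbourhood, PDX1 with 3 bins and URAD, a gene of urate degradation, with 2 held any. In COLO320 DM the stretch held 18, 28 and 46 peaks per list at the lowest, median and highest. In PC3 DM it held 0, 1 and 5, and 11 of 16 lists had any.

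What set this stretch apart was the background under its peaks. The local background, recovered from the authors' fold and p-value and divided by the lowest value of the same library, was 46.3 to 61.6 over the 18 COLO320 DM lists, with a median of 56.6. Over all 974 bins the medians per list were 3.83 to 5.49. Taken over every peak in the stretch, it was 48.6 to 67.6 in COLO320 DM and 1 to 1.23 in the 11 PC3 DM lists with a peak. The fold was low, 2.53 to 3.77 per COLO320 DM list, while fragments at the summit were many, 83 to 143 against 19 to 32 over all 974 bins. Inside PDX1 the bin chr13:27920001-27925000 had the lowest median fold of all 974 bins, 1.88, over a background of 149. The background was far lower at the end near URAD, where bins chr13:27975001-27980000 and chr13:27980001-27985000, joined by 1 peak, had 11.7 and a median fold of 5.15. In the 3 bins beyond, up to 28000000, 0 of 18 COLO320 DM lists had a peak.

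The 16p11 stretch, chr16:33500001-33620000, was delimited in the same way and lies in gene-poor DNA beside the centromere. Of its 24 bins, 16 met the rule, in the 3 domains chr16:33585001-33620000 (7 bins), chr16:33555001-33580000 (5 bins, with the noncoding gene LOC101929031) and chr16:33515001-33535000 (4 bins). It held 23 to 43 peaks per COLO320 DM list, with a median of 27, and 0 to 6 per PC3 DM list, 10 of 16 having any. Its background was 71.7 to 115 times the lowest of the library in COLO320 DM, with a median of 89.7. Over every peak in the stretch it was 73.5 to 131 in COLO320 DM and 1.62 to 12.8 in the 10 PC3 DM lists with a peak. The bin chr16:33545001-33550000 had the most length under peaks, 2507 bp per COLO320 DM list on average, but was marked in 8 PC3 DM lists and so was a shared bin. The domain nearest the stretch's start differed from the rest, with a background of 7.27 to 17.5 and folds of 6.97 to 9.01.

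**Figure D3:**
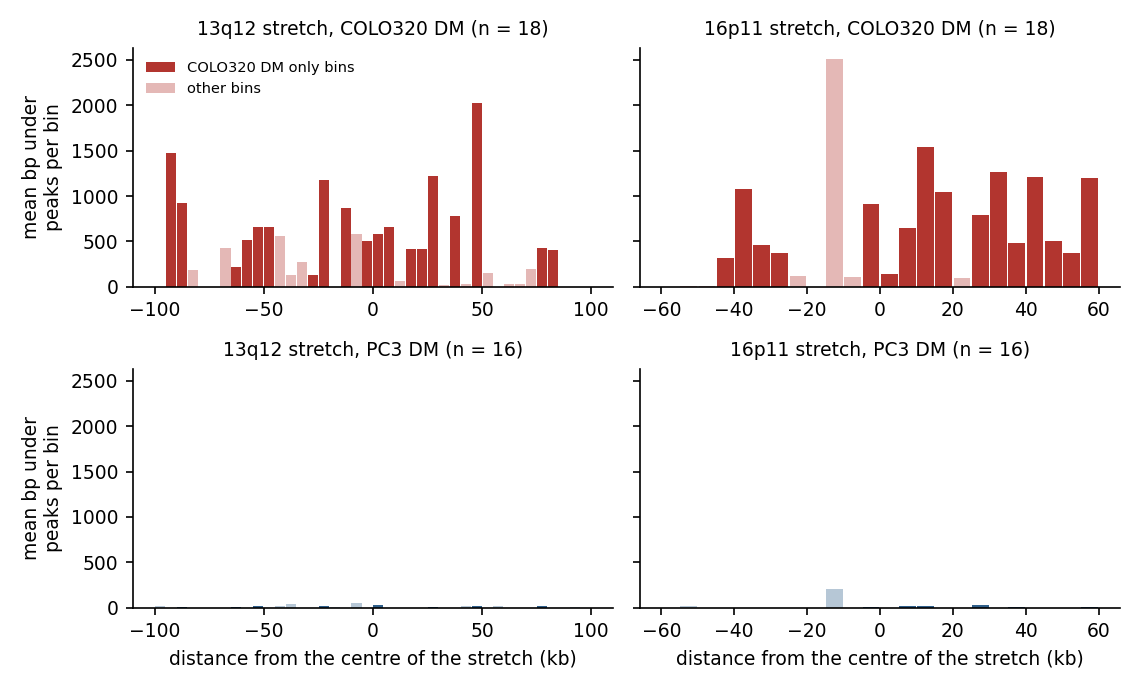
Mean length under peaks in bp per 5 kb bin and list (y axis) against distance in kb from the centre of each stretch (x axis), with COLO320 DM above and PC3 DM below. Full colour marks COLO320 DM only bins and pale colour other bins, and PC3 DM stays near 0 except in 1 shared bin of the 16p11 stretch.

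For scale, the left-out window of chromosome 8 around MYC, from 126 to 128 Mb, had a background of 101 to 120 in COLO320 DM, with a median of 110, and of 2.06 to 22.9 in PC3 DM, with a median of 5.36. That window was measured over every peak. On the same measure, COLO320 DM lists had 48.6 to 67.6 at 13q12 (median 56.9), below the window. At 16p11 they had 73.5 to 131 (median 104), a range that takes in that of the window. The medians of 56.6 at 13q12 and 89.7 at 16p11, from the strongest peak of each chosen bin, lay far above those of the other bins. Whether the copy number of either stretch differs between the lines was not tested. Across the genome, 5228 windows of 100 kb had peaks in 14 or more COLO320 DM lists, and 104 of them had a background of 20 or more. In 18 of these 104 the PC3 DM background was 2 or less; 8 were in the left-out part of chromosome 8 and 10 elsewhere, 7 of which held some of the bins. Besides the stretches, these 7 were chr13:47500001-47600000, chr14:19800001-19900000, chr16:32200001-32300000 and chr8:140000001-140100000, the last with the imprinted noncoding gene PEG13 inside TRAPPC9.

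High background was the exception among the 974 bins. Only 50 had a median background of 20 or more, 29 of them in both stretches together and 21 elsewhere, and 823 were under 10. The extremes elsewhere were both on chromosome 16. The bin chr16:32285001-32290000 had the highest median fold of all, 24.3, with 18.2 to 27.3 over the 18 COLO320 DM lists, and summits within a few bases of each other (interquartile range 2.75 bp). The bin chr16:32335001-32340000 had the highest background, 313, with 1234 fragments at the summit. The median summit lay beyond the end of this bin, which held a median of 392.5 bp under peaks of median width 1144 bp. Both bins were marked in 1 PC3 DM list each. The rest of chromosome 13 mostly did not share the high background of 13q12: the median over its 156 other bins was 4.54 to 6.47 per list. It was 3.45 to 5.15 for the 456 bins outside chromosomes 2, 4 and 13, the distal long arm of chromosome 3 and the 16p11 stretch. Exceptions among the 156 were chr13:72570001-72575000 with a background of 58.6, chr13:47575001-47580000 with 41 and chr13:48620001-48625000 with 26.1. Without both stretches, chromosome 13 still held 16.6% of the bins and 1.59 per Mb.

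**Figure D4:**
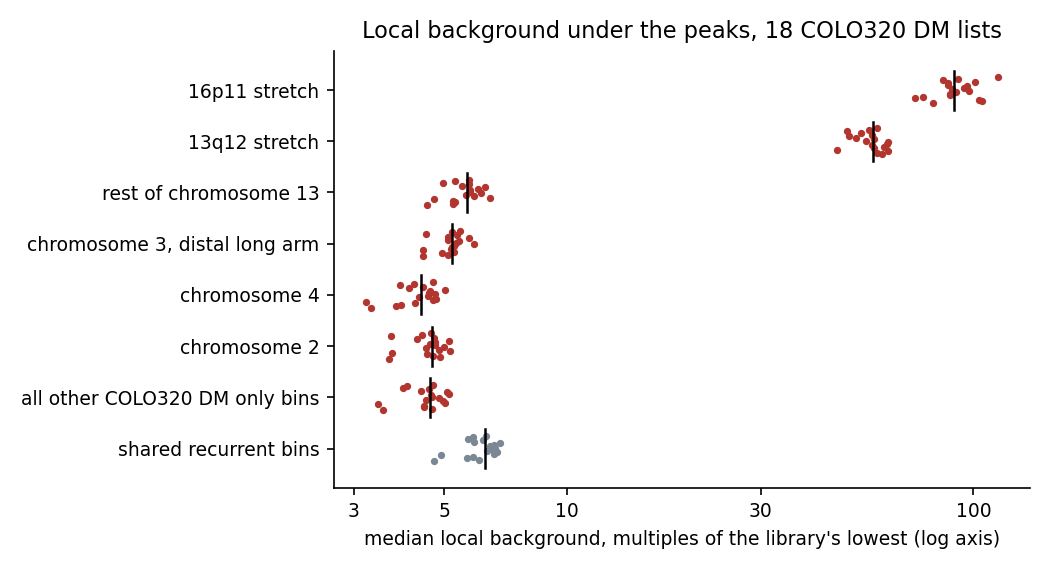
Median local background under the peaks of each COLO320 DM list, in multiples of the lowest background of that list (x axis, log), for groups of COLO320 DM only bins in red and shared bins in grey. Each point is 1 of 18 lists and each line a median: 89.7 for the 16p11 stretch and 56.6 for the 13q12 stretch, against 5.71 for the rest of chromosome 13 and 6.29 for shared bins.

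Peaks in the bins had a slightly higher fold over background, fewer fragments at the summit and a smaller width than in shared bins. Over the 974 bins the median fold ran from 1.88 to 24.3 with a median of 6.08, the median peak width from 260 to 2042 bp with a median of 522 bp, and the summit held 26 fragments at the median. The same medians over shared bins were 5.93, 570 bp and 31 fragments, and the summit median was lower in the COLO320 DM only bins of 18 of 18 COLO320 DM lists. Within each of the 18 COLO320 DM lists, both kinds of bin were then compared by their medians, a contrast that PC3 DM lists alone defined. Fold averaged 5.96 ± 0.27 in COLO320 DM only bins and 5.83 ± 0.261 in shared bins (SD, n = 18), a difference of 0.135 that was positive in 18 of 18 lists. Width averaged 525 ± 128 bp and 579 ± 135 bp, a difference of -54.7 bp, with 0 of 18 lists higher. Local background averaged 4.86 and 6.14, a difference of -1.28, again with 0 of 18 lists higher. In each of these 3 comparisons the two-sided permutation test over 100000 sign changes gave an adjusted p of 1e-05, the smallest it can give. The fold difference is small beside the spread between bins, whose quartiles were 5.23 and 6.81, and since the 18 libraries share 1 genome the p-values speak only of the spread between libraries.

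Sharp summits occurred in both kinds. Of bins with a peak in all 18 COLO320 DM lists, 10 of 173, or 5.78%, had summits within an interquartile range of 10 bp, against 52 of 955, or 5.45%, of shared bins. Among these 10 was chr3:148560001-148565000, which lies between protein-coding genes, 132903 bp from AGTR1, the gene of an angiotensin receptor. Its summit stayed between chr3:148563655 and 148563661 in all 18 lists.

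This same bin led the 45 that were marked in 18 of 18 COLO320 DM lists and 0 of 16 PC3 DM lists, when ranked by fold. Its fold was 6.82 to 19 in the 15 perturbed lists, with a median of 10.6, and 11.4, 9.92 and 9.97 in the 3 vector lists, so the groups overlapped. Second came chr16:33525001-33530000 in the 16p11 stretch, with 4.61 to 10 in perturbed lists and 9.14 to 11.1 in vector lists. The third lay in RB1, the tumour suppressor that restrains entry into the cell cycle, at chr13:48335001-48340000. RB1 had a fold of 6.23 to 14.3 in perturbed lists, with a median of 8.81, and of 5.59, 7.7 and 12.2 in vector lists, over a low background of 2.45. Of the 15 leading bins, 6 were on chromosome 13 and 5 lay in a protein-coding gene. These genes were RB1, TXLNB, a taxilin gene, KCNIP4, which encodes a partner of potassium channels, STK3, a kinase of the Hippo pathway, and MZT1, needed to nucleate microtubules. The remaining ones lay outside protein-coding genes, up to 1203898 bp from the nearest, which was SI, the sucrase gene, for chr3:163770001-163775000. Of these, chr12:10535001-10540000 overlapped the noncoding genes LOC105369657 and LOC105369658. Over the 15 bins the median fold ran from 6.81 to 10.6 and the median width from 260 to 1178 bp.

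Gene content was low: 29% of the 974 bins overlapped a protein-coding gene, against 32.2% of shared bins and 42.2% of all bins with a peak. A protein-coding promoter window fell in 1.03% of them, against 0.663% of shared bins and 2.33% of all. The overlapped genes numbered 230, or 1.2% of the 19126 autosomal protein-coding genes, with a median length of 188 kb, against 114 kb for the 726 genes with a shared bin and 24.5 kb for all. A longer gene meets more bins by construction, so the last of these 3 values is no measure of the bins, and the first 2 were not tested against each other. There were 10 genes with 3 or more of the bins. ANKS1B, a scaffold gene of synapses, CEP112, a centrosomal gene, and MTUS2, a microtubule gene some way beyond PDX1 on chromosome 13, held 4 each. ANKRD31, CA10, CCSER1, EXOC6B, PDX1, STK3 and UGGT2 held 3 each. PDX1 was the exception in size at 6.31 kb, while the others ran from 169 kb (ANKRD31) to 1478 kb (CCSER1). It meets 1 of its 3 bins, chr13:27915001-27920000, only at base 27920000, so its count of 3 depends on where the grid falls.

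The listed gene groups held few of the bins. Among 17 genes of the H3K9 methylation machinery, EHMT1 alone had one, at chr9:137815001-137820000, with a peak in 15 COLO320 DM and 0 PC3 DM lists. Of 23 imprinted genes PEG13 had one, and of 15 colorectal cancer genes 0. These shares, from 0 to 18.2% (2 of 11 at 13q12), stand beside 1.2% of all autosomal protein-coding genes and rest on 5 genes in total, so they describe single loci.

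Perturbed and vector libraries overlapped in fold and width at these bins, and no difference in either passed the test. Median fold averaged 5.98 ± 0.275 in the 15 perturbed COLO320 DM libraries and 5.86 ± 0.266 in the 3 vector libraries (SD), and median width 538 ± 131 bp in perturbed and 457 ± 108 bp in vector libraries. In two-sided exact permutation tests over libraries the adjusted p was 0.9 for fold and 0.769 for width, over 18 tests. Of the 12 tests on fold and width, 0 had an unadjusted p under 0.05, and 3 libraries against 3, as for each single plasmid, cannot go below 0.1 in the exact test. The sizes rest on single vector libraries. The width difference of 81.3 bp was 37.6 bp without vector replicate 1, 46.6 bp without vector replicate 2 and 138 bp without vector replicate 3. The fold difference of 0.125 was -0.00815 without vector replicate 2 and 0.235 without vector replicate 3. Leaving out replicate 3 of ecSE2 or of ecSE4 gave a fold difference of 0.0729 or 0.0823.

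The share of the 974 bins with a peak averaged 89.7 ± 8.65% in perturbed libraries and 78.1 ± 13.2% in vector libraries, a difference of 11.6 percentage points. Perturbed libraries ranged from 68.8 to 95.8% and vector libraries from 69.5 to 93.2%, so the groups overlapped. No test is given for this share, because the rule that chose the bins counted the same peaks: a bin may lack a peak in all 3 vector lists, but must have one in most perturbed lists. The difference was 19.3 percentage points without vector replicate 3. Measured against the shared bins of the same library, which meet the same count of COLO320 DM lists, it was 1.24 percentage points, a comparison added after the data were seen.

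By plasmid, ecSE4 libraries had the most even shares, 91.2 to 95.3%. The ranges were wide for ecSE1, 70.9 to 95%, ecSEcombo, 68.8 to 93.3%, and the vector, 69.5 to 93.2%, with 3 libraries each. Of the 974 bins, 243 were marked in all 15 perturbed lists and 462 in all 3 vector lists. These counts rest on unequal numbers of lists and are not comparable. Another 7, including the bins of LHX8, a homeobox gene of the forebrain, CEP112 and HEATR5A, had a peak in 14 of 15 perturbed lists and 0 of 3 vector lists, and were named after their values were seen. The rule fixes the direction of these 7, since a bin absent from most perturbed lists cannot be chosen.

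**Figure D5:**
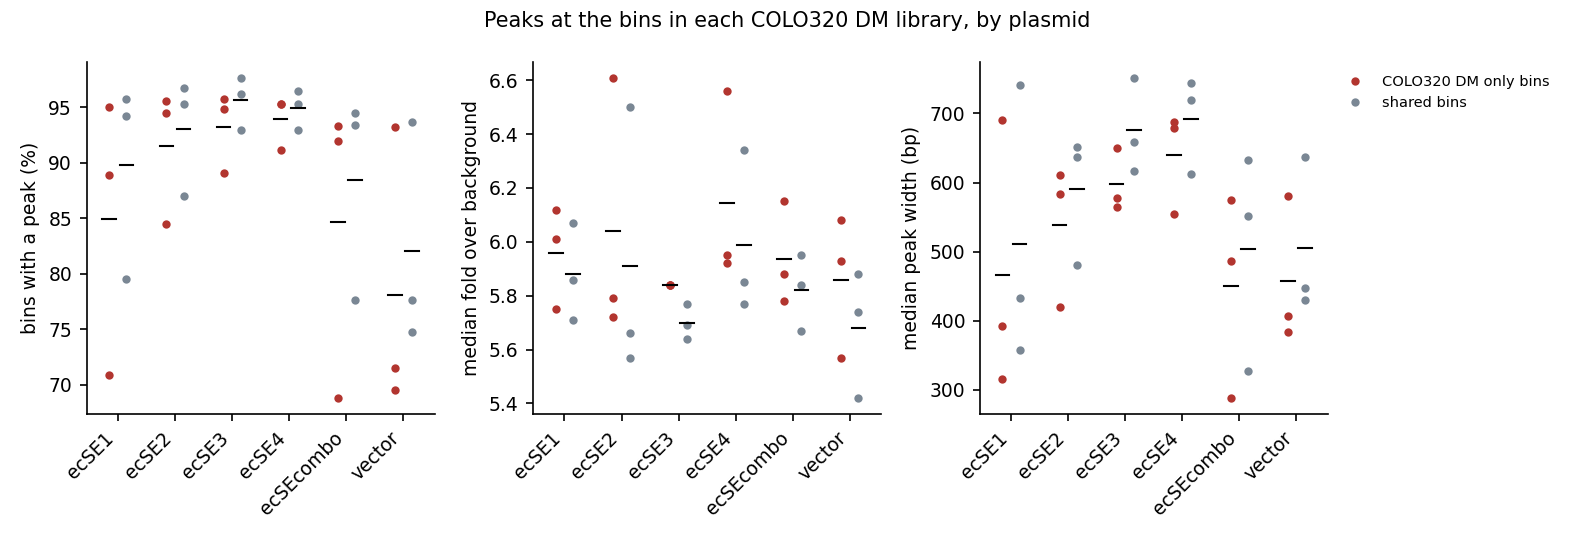
Share of bins with a peak in % (left), median fold over local background (middle) and median peak width in bp (right) in each COLO320 DM library by plasmid (x axis), with COLO320 DM only bins in red and shared bins in grey. Points are libraries and black lines group means; vector libraries lie between 69.5 and 93.2% for COLO320 DM only bins, inside the 68.8 to 95.8% of perturbed libraries.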

How the data were processed

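The data were 34 deposited peak lists on hg38, 1 per library. MACS2 2.2.7.1, Bowtie2 2.3.5, bedtools, Trim Galore 0.6.6 and SAMtools stand in the submitters' processing notes, with roles not given. The names of the deposited lists state an FDR of 0.001. A control library and the handling of duplicates are not given in the sources used here. The authors' columns are a display score (not used), a fold (ratio of summit to local background), and a p-value and q-value as -log10, the lowest deposited -log10 q being 3. Read totals were not used, so depth is unknown.

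Groups and replicate numbers came from the titles. Nothing says that replicates were separate cultures, so each p-value reflects spread among libraries that may be technical. Where several peaks overlapped a bin, the one with the highest fold gave its values. Domains are runs of touching bins. Summit fragments and local background were recovered from fold and p-value (tolerance 0.0005 in -log10 p) for at least 99.87% of peaks per list. Perturbed and vector libraries were compared by exact permutation, and COLO320 DM only with shared bins by sign changes within lists, each Benjamini-Hochberg adjusted at 0.05. The share of bins with a peak, which the rule used, is given with no test, though its 6 comparisons count among the 18 in the adjustment. The rule, the exact permutation test and the recovery of summit fragments were tried on simulated data. The sign-change test and the adjustment were not. Genes were RefSeq on GRCh38.p14, without exons, so exon or intron is not given.

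The regions, lists and tests were chosen with earlier results of these data known. Named were the 10 longest domains, those of equal length in order of fold, and the 15 strongest bins in 18 of 18 and 0 of 16 lists. Also named were the 3 densest and 3 sparsest chromosomes, genes with 3 or more bins, genes of named bins, and up to 4 genes per list. Promoter genes, both stretches, the windows and the bins of extreme fold or background were named after seeing values. Alternatives were a -log10 q of at least 5, an overlap of 500 bp, lists of equal length, 10 kb bins, joining across 50 kb, stricter recurrence, vector lists alone, the combination left out, 1 value per domain, tests within replicate numbers and each replicate left out. Software was scipy 1.17.1, pandas 2.3.3, numpy 2.4.6 and matplotlib 3.10.9 under Python 3.11.15.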

Additional observations from a re-analysis of the deposited data

How the results depend on the processing

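The number of bins was 993 to 1142 when 1 replicate was left out in turn and 846 to 1259 under most other settings, with the limit at 13 of 17 lists where a COLO320 DM list was left out and at most 2 of 15 where a PC3 DM list was, so that the 974 are included by construction. It moved to 412 (110 of them among the 974), in 405 domains, when a peak had to cover 500 bp, and to 45, in 43 domains, for 18 of 18 and 0 of 16 lists. Bins in both stretches, 35 as reported, were 11 and 12 under these settings, added after seeing the data, and 35 to 37 with 1 replicate left out. Domains numbered 927 to 1069 with 1 replicate left out and 819 when bins up to 50 kb apart were joined. Bins of 10 kb covered 6.9 Mb, against 4.87 Mb. Chromosome 13 held 35.6% of the bins in 18 of 18 and 0 of 16 lists, 14.9% with vector lists alone, and 16.4 to 18.1% with 1 replicate left out. With vector lists alone, 394 of the 974 were among the 920 bins found, and with lists of equal length 471 were among 846. Without both lists of over 100000 peaks the limits were 13 of 17 and 2 of 15 lists, which again include the 974, and there were 1207 bins.

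Perturbed against vector, no setting brought an adjusted p for fold or width under 0.05. The share, given with no test, differed by 8.09 to 19.3 percentage points, the fold by -0.00815 to 0.235 and the width by 37.6 to 138 bp with 1 replicate left out, the sign of the fold turning without vector replicate 2. With lists of equal length the share differed by 4.95 points. With the replicate number as a block, adjusted p was 0.692 for fold and for width. Libraries of the same number had a median correlation of 0.0336 over 45 pairs (-0.246 to 0.207), against -0.00651 over 90 pairs of different numbers. No pairing by number was seen in these correlations, which cannot exclude a batch shared by libraries of the same number. COLO320 DM only against shared bins, fold, width and background kept their direction and adjusted p under 0.05 in every setting in which they were compared. They differed by 0.11 to 0.151, by -58.6 to -51.9 bp and by -1.33 to -1.21 with 1 replicate left out. Lists of equal length, an overlap of 500 bp and the combination left out were not among the settings of this contrast. In bins with a peak in all 18 lists the differences were 0.0798, -33.8 bp and -0.688. The cause of these shifts was not tested. Depth is unknown, so a missing peak is not shown to be a missing mark.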

Other observations

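On the X chromosome, which the rule leaves out, 53 of 21177 bins with a peak met the same counts, beside 78 recurrent in COLO320 DM and in 3 or more PC3 DM lists. The mirror rule, a peak in at least 13 of 16 PC3 DM lists and at most 2 of 18 COLO320 DM lists, found 89 autosomal bins. A single bin at chr9:134850001-134855000, marked in 14 COLO320 DM lists and 1 PC3 DM list, holds the microRNA genes MIR3689B, MIR3689D2 and MIR3689E.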
